A study of Anguilla anguilla with 12 samples.

Results

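The genes described here are 8 genes of vascular smooth muscle and mural cells, chosen by name out of 31061 annotated genes of the European eel, *Anguilla anguilla*. Their transcripts were taken as a measure of RNA of vessels and of the tissue around them in samples drawn as oocytes or eggs. From which cells these transcripts came was not tested. Smooth muscle cells form the contractile wall of arteries and arterioles, and pericytes cover capillaries, and both are called mural cells. An ovarian follicle in a teleost is wrapped in a theca that carries capillaries and contractile cells, while the oocyte inside it has no vessels. At ovulation the egg leaves its follicle, and the theca with its vessels stays in the ovary. Of the 8 genes, *acta2*, *tagln*, *myh11a*, LOC118211939 and *tpm4a* encode parts of the contractile apparatus, *kcnj8* and *abcc9* encode the subunits of the ATP-sensitive potassium channel of vascular muscle, and *rgs4* encodes a regulator of G protein signaling.

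RNA was sequenced from 4 groups of 3 libraries each. DHP eggs (libraries 4, 8 and 12, numbered as in the count tables) were stripped after females had received 17α,20β-dihydroxy-4-pregnen-3-one, and DHP oocytes (libraries 3, 7 and 11) came from ovarian tissue drawn by cannula just before that injection. P eggs (libraries 2, 6 and 10) were stripped after progesterone, and P oocytes (libraries 1, 5 and 9) were taken in the same way just before it. All donors were farmed eels of WT genotype that had been feminized with estradiol in their feed. They then received an implant of methyltestosterone and estradiol, and were matured with weekly injections of carp pituitary extract. The paper's protocol also includes a booster injection of this extract before DHP or P. There were 3 females per treatment, and each gave both oocytes and eggs. The comparison of eggs with oocytes thus also spans ovulation and several hours, and no group analysed here was sampled at the later time without an injected steroid. Progesterone is a precursor of DHP, from which it differs by lacking one hydroxyl group and by carrying a ketone in place of another.

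The libraries held 6612347 to 9903122 counted fragments. Values below are raw counts of fragments, or normalized counts, which are CPM (counts divided by library size and set to a common scale) after TMM scaling of library sizes. Differentially expressed genes had an adjusted p under 0.01 in the quasi-likelihood test of edgeR. The labels name oocyte as the cell type of the samples drawn before injection, yet transcripts of the follicle wall were present in each of these libraries. The sum of 15 follicle cell genes was 0.670 to 16.9 normalized counts in DHP eggs against 605 to 975 in DHP oocytes, and 0.165 to 1.68 in P eggs against 1002 to 1306 in P oocytes, with library 8 the highest of the eggs. Of 54 genes on a list of maternal genes, 11 of 51 tested were lower and 5 higher after DHP (median log2 fold change -1.08). After P 23 of 50 were lower and 6 higher (median -1.44). Among all genes tested, 6.22% were lower and 7.35% higher after DHP, and 22.7% and 17.9% after P. *ccnb1*, a cyclin of oocyte maturation, rose by 3.54 ± 0.37 on the log2 scale after DHP and 3.96 ± 0.29 after P (adjusted p = 0.00166 and 1.5e-05), and *ccnb2* rose by 3.05 ± 0.30 and 3.54 ± 0.25 (adjusted p = 0.00153 and 1.5e-05). *zar1l*, like the zygote arrest gene of oocytes, fell by 2.83 ± 0.63 after DHP and fell by 4.76 ± 0.30 after P (adjusted p = 0.0099 and 1.2e-05). The maternal list was set by gene name and product and also held *zpr1*, a zinc finger gene. The sum of all its 54 genes was 26506 to 30344 normalized counts in DHP eggs against 8956 to 9195 in DHP oocytes. In P eggs it was 27356 to 35993 against 7228 to 8795 in P oocytes. Without *ccnb1* and *ccnb2*, the sum of the 52 genes left, *zar1l* among them, was 3590 to 6634 in DHP eggs against 5632 to 7561 in DHP oocytes. In P eggs it was 4182 to 5048 against 5745 to 6496 in P oocytes. These values are counts in mRNA libraries. Amounts of transcript per oocyte or egg and changes in poly(A) tails were not measured.

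Together the 8 genes took 2.11, 16.2 and 10.2 CPM of the counted fragments in DHP eggs, against 1328, 311.2 and 249.6 in DHP oocytes. In P eggs they took 4.93, 2.62 and 6.93, against 314.4, 557.3 and 628.2 in P oocytes. The means were 9.50 ± 7.05 in DHP eggs, 629.5 ± 605.5 in DHP oocytes, 4.83 ± 2.16 in P eggs and 500.0 ± 164.6 in P oocytes (SD, n = 3 each). Every egg library lay below every oocyte library, and DHP oocyte library 3 was the highest, with library 9 next. Without library 3 the mean of DHP oocytes was 280.4 CPM. In bulk samples, fewer cells of a type and less RNA per cell cannot be told apart.

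All 8 genes had their 3 egg libraries below their 3 oocyte libraries in both treatments, which held for 27.2% of all genes tested after DHP and 36.6% after P. After DHP, 5 of the 8 genes were differentially expressed and lower, where 6.22% of 15149 genes were lower and 7.35% higher. After P it was 7 of 8, where 22.7% of 15348 genes were lower and 17.9% higher. None was higher in eggs. Of all genes called, 45.8% were lower after DHP and 55.9% after P, and with scaling by total counts 81.1% and 80.1%. The median log2 fold change of the 8 genes was -6.20 after DHP and -7.17 after P, or -6.22 with the genes at 0 counts set to their bounds, beside -0.20 and -0.26 for all genes tested. All 8 passed the filter on low counts through their oocyte libraries, so these shares and medians describe the genes and are no test of the group.

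**Figure D1:**
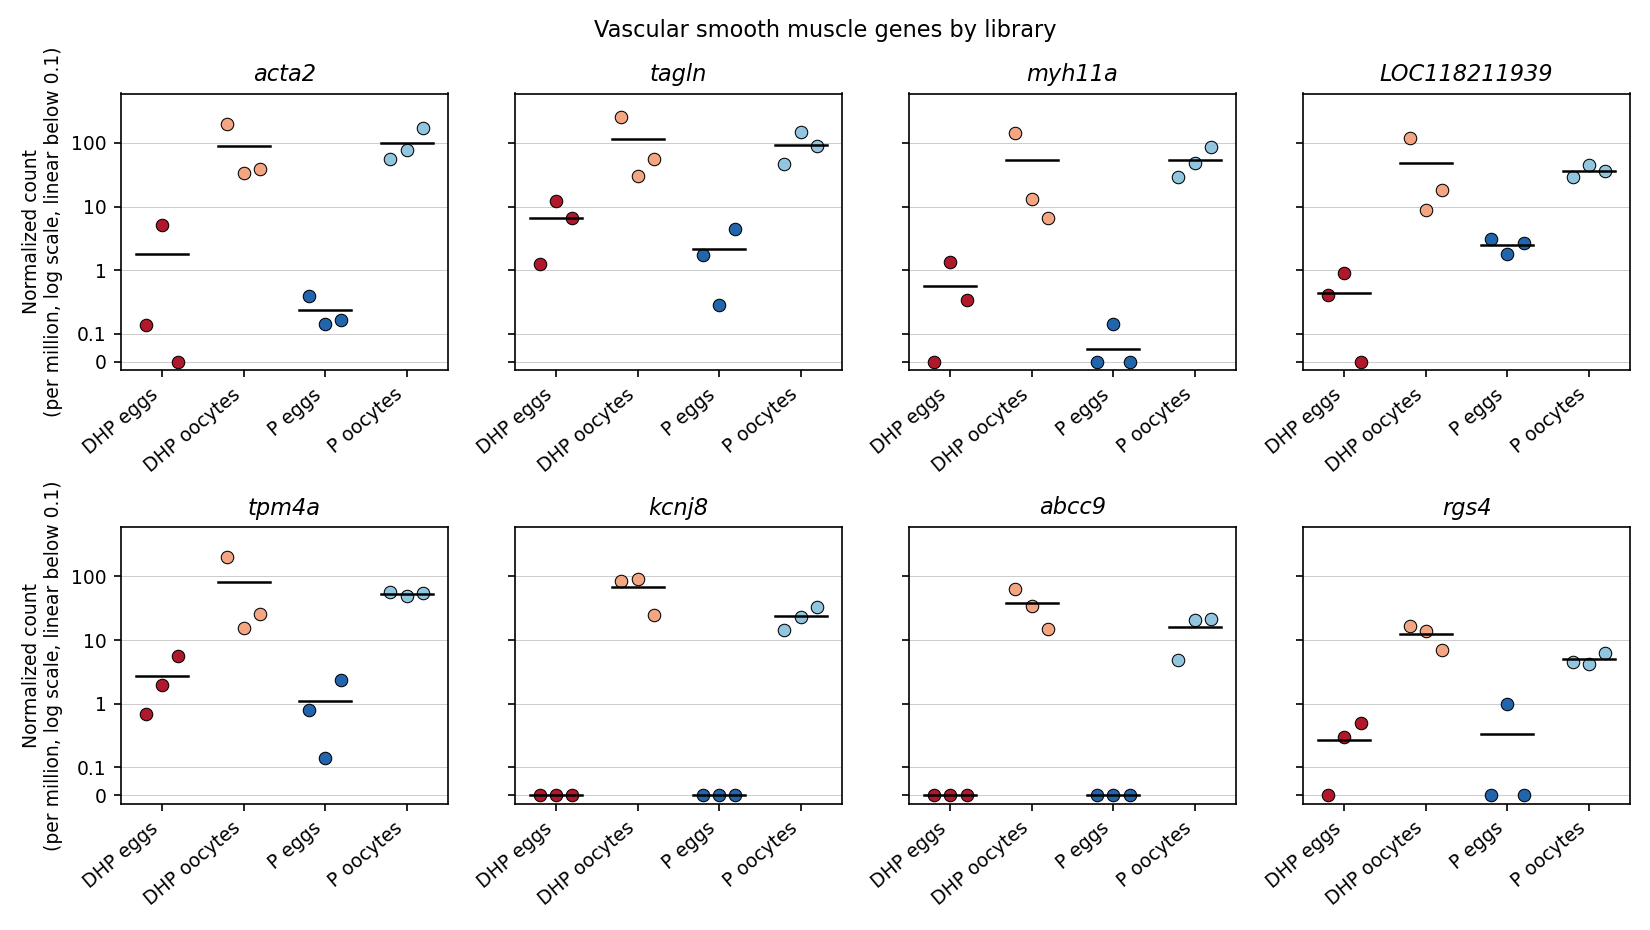
Normalized counts in CPM (log axis, linear below 0.1) of the 8 genes by group, with 1 point per library and a line at the mean of 3 libraries. The points of eggs sit below those of oocytes in every panel, and *kcnj8* and *abcc9* are at 0 in all 6 egg libraries.

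*acta2* encodes smooth muscle alpha actin, the actin of contractile filaments in vessel walls (fAngAng1.pri chromosome 2, bases 11263295 to 11269298). It had 1, 34 and 0 counts in DHP eggs, against 2214, 289 and 409 in DHP oocytes. In P eggs it had 3, 1 and 1 counts, against 614, 1022 and 1607 in P oocytes. Library 8 thus held 34 of the 35 *acta2* counts of DHP eggs. Normalized, *acta2* averaged 0.234 ± 0.141 in P eggs and 101.6 ± 62.6 in P oocytes (SD, n = 3 each), and it fell by 8.67 ± 0.68 on the log2 scale (SE, adjusted p = 1.9e-05). After DHP the means were 1.76 ± 2.93 in eggs and 89.8 ± 91.9 in oocytes, and the log2 fold change of -5.75 ± 1.34 missed the threshold at an adjusted p of 0.0113. Without library 8 this fold change was -10.02 and its adjusted p 0.00275, and without library 3 they were -4.51 and 0.0324. After P the log2 fold change was -9.26 without library 2 and -8.07 without library 9.

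*tagln* encodes transgelin, an actin-binding protein of smooth muscle (chromosome 12, bases 30770394 to 30780060). It kept the most counts in DHP eggs of the 8 genes. It had 9, 80 and 40 counts in DHP eggs, against 2945, 260 and 577 in DHP oocytes, and 13, 2 and 27 counts in P eggs, against 518, 1964 and 828 in P oocytes. The 80 counts of egg library 8 and the 260 of oocyte library 7 were the nearest values of the 2 groups for *tagln*. It fell after P by 5.50 ± 0.78 on the log2 scale (adjusted p = 0.00031). After DHP its log2 fold change was -4.19 ± 0.97 with an adjusted p of 0.0114, which missed the threshold. It was -2.79 without library 3 (adjusted p = 0.0307) and -4.91 without library 8 (adjusted p = 0.0141), and after P it was -6.53 without library 10.

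*myh11a* encodes the heavy chain of smooth muscle myosin, the motor that pulls on these actin filaments (chromosome 2, bases 50912093 to 50944702). It had 0, 9 and 2 counts in DHP eggs, against 1614, 112 and 69 in DHP oocytes. In P eggs it had 0, 1 and 0 counts, against 328, 638 and 794 in P oocytes. A single count over all P eggs put *myh11a* 1082-fold lower than in P oocytes, with a 95% counting interval of 194.0 to 42780, and the fall was significant (adjusted p = 2.4e-05). After DHP it fell by 6.64 ± 1.45 on the log2 scale (adjusted p = 0.0089). That call was lost with the libraries paired by female, where the log2 fold change was -5.69 (adjusted p = 0.0133), and in each fit that left out 1 of the 6 libraries (adjusted p 0.0104 to 0.0382). The log2 fold change of *myh11a* was -4.20 when library 3 was left out. With library 4, 8 or 11 left out it was -6.01, -8.37 and -7.26. After P its adjusted p was 0.00026 without library 6, the library with the single count.

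LOC118211939 encodes myosin regulatory light polypeptide 9, the light chain whose phosphorylation switches smooth muscle contraction on (chromosome 13, bases 14424294 to 14429931). It had 3, 6 and 0 counts in DHP eggs, against 1362, 74 and 190 in DHP oocytes. In P eggs it kept 23, 13 and 16 counts, against 322, 594 and 342 in P oocytes. It fell by 6.82 ± 1.26 on the log2 scale after DHP (adjusted p = 0.00507) and fell by 3.89 ± 0.41 after P (adjusted p = 6.5e-05). The call after DHP was lost without library 4, 11 or 12 (adjusted p 0.0227, 0.0102 and 0.0202). The log2 fold change after DHP was -4.96 without library 3 (adjusted p = 0.00952) and -7.76 without library 8 (adjusted p = 0.0089). LOC118211939 was the contractile gene with the most counts in P eggs, where its mean was 6.80% of that in P oocytes.

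A second gene with the same product, LOC118208547 (chromosome 11, bases 33543321 to 33550988), had 0 counts in all 3 P eggs, against 115, 455 and 228 in P oocytes. Its mean was thus at least 159.2-fold lower in P eggs, set against 3 counts over the group. In DHP eggs LOC118208547 had 1, 21 and 1 counts, against 1130, 93 and 358 in DHP oocytes, and it fell by 5.46 ± 1.19 on the log2 scale (adjusted p = 0.00901). Where LOC118211939 kept 13 to 23 counts in each of the P eggs, the other gene of its name thus had none. How alike these genes are in sequence was not examined. Reads of similar genes can be misassigned or left out in counting, which was not tested here. This also holds for *acta2*, *tagln* and *tpm4a*, which belong to families of similar genes. A myosin-11-like gene, LOC118216985, had 1 count over all 12 libraries.

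*tpm4a* encodes a tropomyosin, which lies along actin filaments in muscle and in the cytoskeleton of many cells (chromosome 4, bases 23817082 to 23838478). It had 5, 13 and 33 counts in DHP eggs, against 2270, 130 and 266 in DHP oocytes. In P eggs it had 6, 1 and 14 counts, against 629, 657 and 509 in P oocytes. P oocytes differed little from each other in *tpm4a*, with 53.5 ± 3.67 normalized counts, while DHP oocytes had 80.6 ± 104 (SD, n = 3 each). It fell by 5.68 ± 0.67 on the log2 scale after P (adjusted p = 0.00011), and its log2 fold change of -4.96 ± 1.13 after DHP had an adjusted p of 0.0106, above the threshold. That value was -2.96 without library 3 (adjusted p = 0.0306) and -6.001 without library 12 (adjusted p = 0.0218), and the one after P was -6.79 without library 10.

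*kcnj8* and *abcc9* encode the pore subunit Kir6.1 and the sulfonylurea receptor SUR2, which together form a potassium channel that opens when cellular ATP is low and relaxes vascular muscle, and both genes mark pericytes in mouse. They lie side by side on chromosome 19, *abcc9* at bases 9101301 to 9138861 and *kcnj8* at bases 9142530 to 9147051, with 3668 bases and 0 annotated genes between them. *kcnj8* had 0, 0 and 0 counts in DHP eggs, against 961, 782 and 252 in DHP oocytes, and 0, 0 and 0 in P eggs, against 162, 311 and 307 in P oocytes. *abcc9* had 0, 0 and 0 counts in DHP eggs, against 713, 294 and 157 in DHP oocytes, and 0, 0 and 0 in P eggs, against 54, 278 and 200 in P oocytes. These were the 2 genes of the 8 without a single count in any egg library.

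Set against 3 counts over the group, *kcnj8* was at least 445.8-fold lower in DHP eggs and at least 163.5-fold lower in P eggs. For *abcc9* the bounds were at least 249.7-fold after DHP and at least 108.9-fold after P. Both falls were significant for *kcnj8* (adjusted p = 0.00184 after DHP and 8.0e-05 after P) and for *abcc9* (adjusted p = 0.00201 and 0.00038). They were the only members called in every alternative fit of both treatments, with adjusted p up to 0.00981 for *kcnj8* and 0.00982 for *abcc9*. These bounds cover counting in eggs only and rest on the mean of 3 oocyte libraries. With 1 oocyte library left out, the bound of *kcnj8* was 362.6-fold to 588.0-fold after DHP and 131.2-fold to 195.0-fold after P. For *abcc9* it was 165.3-fold to 324.2-fold after DHP and 89.1-fold to 146.7-fold after P. The lowest value of *abcc9* after DHP, without library 3, was over 1.5 times lower than with all libraries.

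*rgs4* encodes an RGS protein, which shortens signals of G protein-coupled receptors by speeding the hydrolysis of GTP (chromosome 4, bases 27909700 to 27915506). It had 0, 2 and 3 counts in DHP eggs, against 191, 117 and 73 in DHP oocytes. In P eggs it had 0, 7 and 0 counts, against 50, 55 and 59 in P oocytes. The 7 counts stood in library 6, which had only 1 count of *acta2* and 2 of *tagln*. *rgs4* fell by 5.59 ± 0.91 on the log2 scale after DHP (adjusted p = 0.00354), a call lost without library 7 (adjusted p = 0.0157) or library 12 (adjusted p = 0.0135). It was -4.97 without library 4 and -6.37 without library 12. After P its log2 fold change was -3.87 ± 1.09 and missed the threshold (adjusted p = 0.0125). It passed with the libraries paired by female, at -4.24 (adjusted p = 0.00683), and without library 6, at -8.56 (adjusted p = 0.00205). Without library 2 it was -3.26 (adjusted p = 0.0358).

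**Figure D2:**
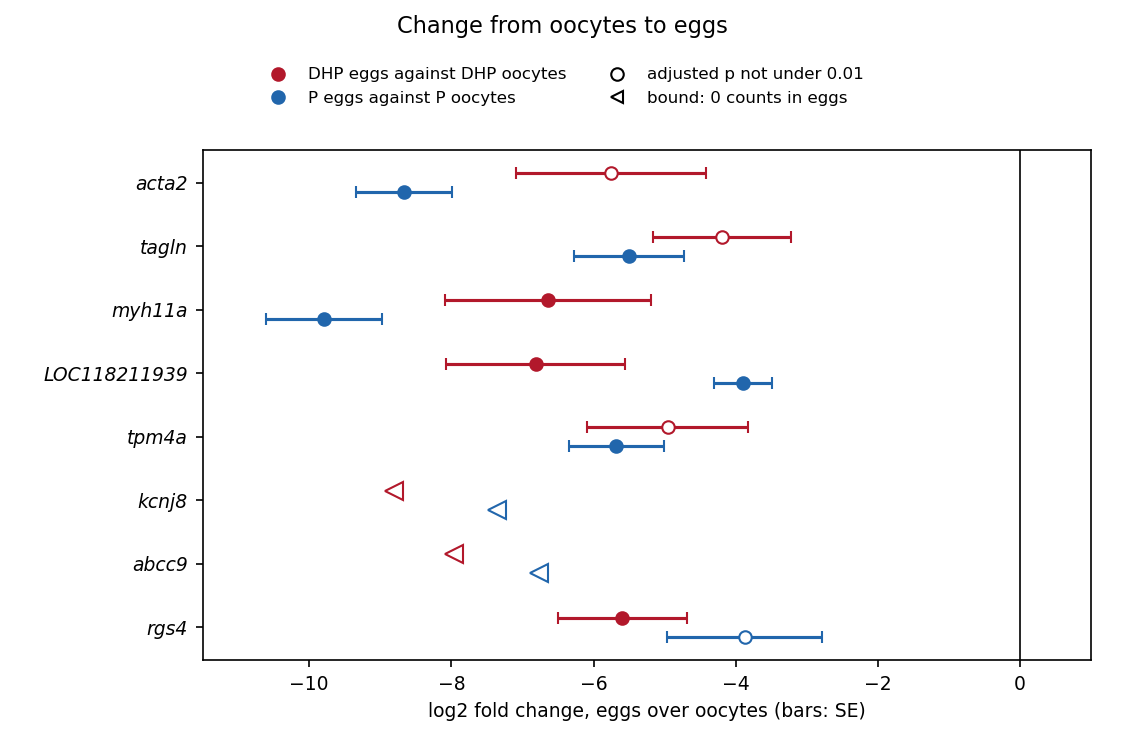
log2 fold changes of eggs over oocytes for the 8 genes, with bars for the SE, filled circles where the adjusted p was under 0.01 and triangles for bounds where eggs had 0 counts. All values lie between -3.87 and -9.80, and those of *acta2*, *tagln* and *tpm4a* after DHP and *rgs4* after P are open circles.

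The count of 5 genes after DHP depended on single libraries. It was 3 without library 4, 7 or 11, and 2 without library 12. The calls over all genes fell too. Without library 4, 7, 11 or 12, 1.35%, 0.794%, 1.52% and 0.348% of all genes tested were lower, against 6.22% with all libraries. After P the count was 7 or 8 in every fit that left out a library, where 15.2% to 18.1% of all genes tested were lower. The tests of eggs against oocytes in the 2 treatments share no libraries.

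The level of the contractile genes in eggs, as a percentage of that in oocytes, also differed between pairs of libraries, with a single pair per female. These percentages depend on both libraries of a pair. The 5 contractile genes summed to 920, 102 and 146 normalized counts in oocyte libraries 3, 7 and 11. In egg libraries 4, 8 and 12 they summed to 2.46, 21.5 and 12.6. The amount of tissue drawn with the oocytes was not tested. Paired by the order of the libraries in the tables, *tagln* in egg library 8 was at 39.4% of its level in oocyte library 7, and *acta2* at 15.1%, *tpm4a* at 12.8%, LOC118211939 at 10.4% and *myh11a* at 10.3%. In egg library 4 the same 5 genes were at 0 to 0.472% of their level in oocyte library 3, and in egg library 12 at 0 to 21.5% of that in library 11. In the P pairs LOC118211939 was at 10.5%, 4.08% and 7.20%, while *acta2* was at 0.720%, 0.182% and 0.0957%. Library 8 also had the largest sum of follicle cell genes among eggs, at 16.9 normalized counts, beside 21.8 for the 8 genes. The other eggs did not follow this order. In libraries 4 and 12 follicle cell genes summed to 2.73 and 0.670, and the 8 genes to 2.46 and 13.1. In P egg libraries 2, 6 and 10 the sums were 0.794, 1.68 and 0.165, and those of the 8 genes 5.95, 3.50 and 9.59. The part of follicle tissue in the level of the smooth muscle genes was not tested. Oocyte library 7, the partner of egg library 8, was the lowest oocyte library for 4 of the 5 contractile genes.

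Among the oocyte samples the contractile genes and the channel genes did not follow one order. Library 3 was the highest of 6 libraries for all 8 genes except *kcnj8*, for which library 7 was 1.09-fold above it. Library 7 was the lowest for *acta2*, *tagln*, LOC118211939 and *tpm4a*, and the second highest for *abcc9* and *rgs4*. Library 1 was the lowest for *kcnj8* and *abcc9*, and library 11 the lowest for *myh11a*. The highest library exceeded the lowest 21.4-fold for *myh11a*, 13.8-fold for LOC118211939, 13.1-fold for *tpm4a*, 13.01-fold for *abcc9*, 8.49-fold for *tagln*, 6.34-fold for *kcnj8*, 5.74-fold for *acta2* and 4.08-fold for *rgs4*.

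**Figure D3:**
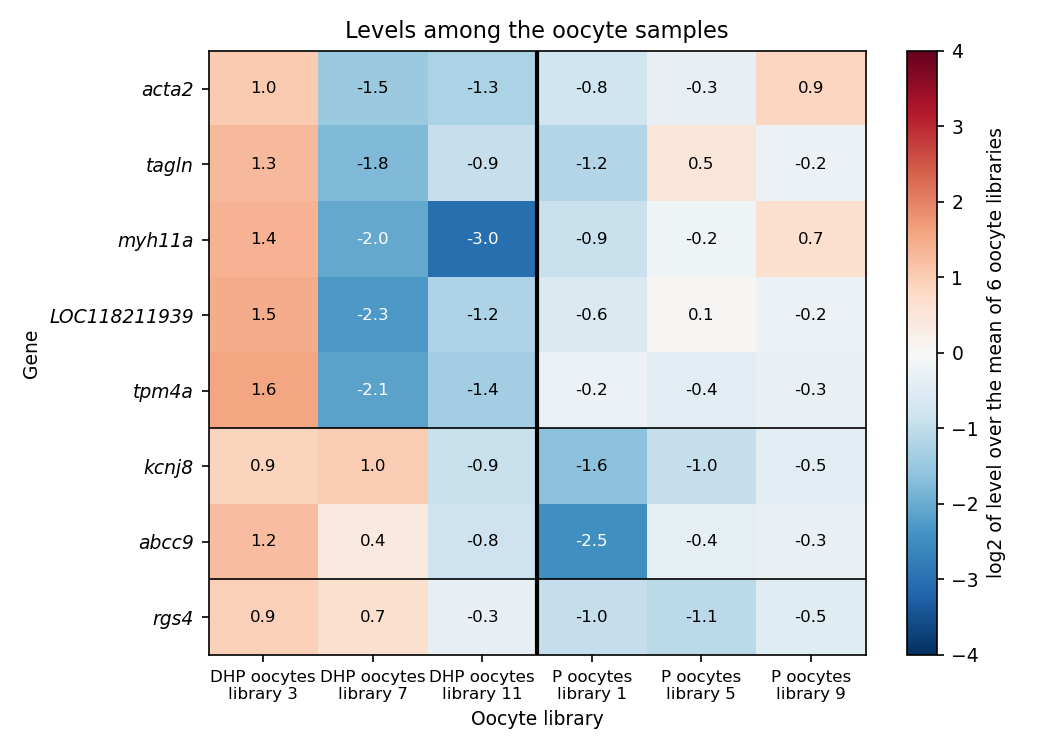
Level of each gene in the 6 oocyte libraries as the log2 of its normalized count over the mean of the 6, with DHP oocytes left of the thick line. Library 3 is high throughout, and in library 7 the 5 contractile genes in the upper rows are low while *kcnj8*, *abcc9* and *rgs4* are above their means.

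The ratio of raw counts of *kcnj8* to *acta2* was 0.434, 2.71 and 0.616 in DHP oocytes and 0.264, 0.304 and 0.191 in P oocytes. The ratio of *kcnj8* to *tagln* was 0.326, 3.01 and 0.437 in DHP oocytes and 0.313, 0.158 and 0.371 in P oocytes. Library 7 was thus over 4-fold above each other oocyte library in both ratios. Both channel genes gave 52.3% of the counts of the 8 genes in library 7 (95% exact binomial interval 50.1% to 54.5%), against 8.07% to 20.5% in the other 5 oocyte libraries. These intervals cover counting error only.

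Eggs kept some contractile counts without channel counts. In egg library 8, 3 counts of *kcnj8*, the limit that a count of 0 allows, would give a ratio of 0.0882 to *acta2* and 0.0375 to *tagln*. Both lie below the lowest oocyte ratios of 0.191 and 0.158. For *tagln* the limit was also below 0.158 in DHP egg library 12, at 0.075, and in P egg library 10, at 0.111, but not in DHP egg library 4, at 0.333, or P egg library 2, at 0.231. In library 8 the channel genes were 0 of 144 counts of the 8 genes, with a 95% exact binomial upper bound of 2.53%, and in library 12 they were 0 of 78, with an upper bound of 4.62%.

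**Figure D4:**
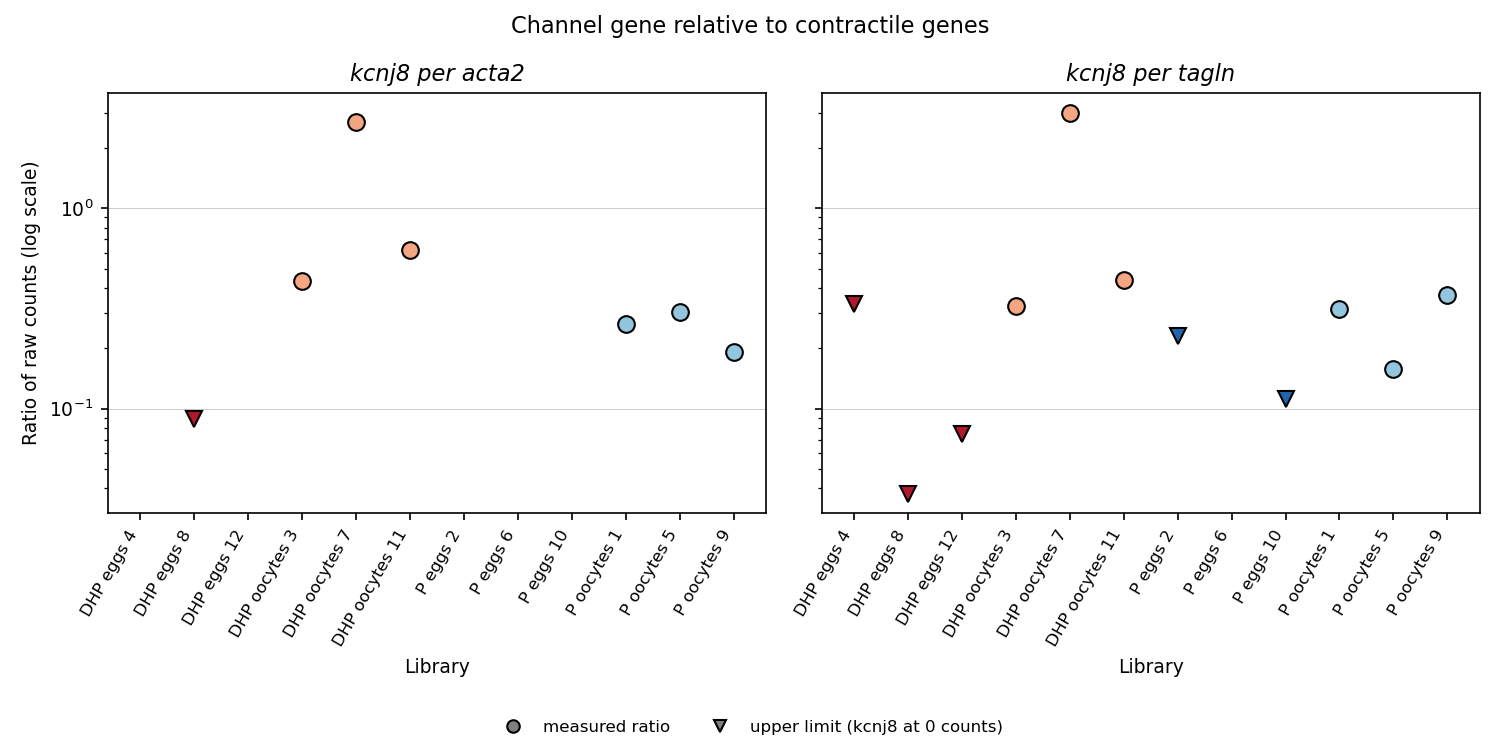
Ratio of raw counts of *kcnj8* to *acta2* and to *tagln* (log axis) in each library, with circles for measured ratios and triangles for the upper limit where *kcnj8* had 0 counts. Libraries with at most 3 counts of the contractile gene have no point, library 7 stands above the other oocyte libraries, and the triangles of egg library 8 lie below all oocyte ratios.

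P and DHP as injected steroids were compared in the eggs. None of 13178 genes was called by edgeR (0% of genes, beside 602 with an unadjusted p below 0.05 and 9 called by DESeq2), and only LOC118211939, *tagln* and *tpm4a* had enough counts to be tested. LOC118211939 had 2.50 ± 0.623 normalized counts in P eggs and 0.439 ± 0.454 in DHP eggs (SD, n = 3 each), and its groups did not overlap. All 3 P eggs were above all 3 DHP eggs for 3.65% of the genes tested. The log2 difference of LOC118211939 was 2.52 ± 0.96 by edgeR (unadjusted p = 0.0234, adjusted p = 0.984), with a 95% interval of 0.49 to 5.37 by limma-voom. *tagln* differed by -1.56 ± 0.96 (interval -4.21 to 0.72) and *tpm4a* by -1.30 ± 1.03 (interval -3.94 to 1.17), both with an adjusted p of 0.984. The intervals leave room for differences of several fold in either gene, so eggs of both steroids were not shown to be alike in these transcripts. *acta2*, *myh11a* and *rgs4* were too low in eggs to be tested, with 5, 1 and 7 counts over P eggs and 35, 11 and 5 over DHP eggs.

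When the fold changes of eggs over oocytes were compared between P and DHP, no member was called (0% of 16891 genes by edgeR, beside 700 with an unadjusted p below 0.05 and 3 called by DESeq2). The difference in log2 fold change, P less DHP, was 2.87 ± 1.26 for LOC118211939 (unadjusted p = 0.0395), -2.98 ± 1.68 for *acta2*, -3.20 ± 2.24 for *myh11a*, -1.36 ± 1.27 for *tagln*, -0.75 ± 1.34 for *tpm4a* and 1.68 ± 1.51 for *rgs4*, each with an adjusted p of 1.00. For *acta2* it was 1.34 without library 8. With the libraries paired by female, a fit added after the data had been seen, no member was called either, with 2.35 for LOC118211939, -2.48 for *acta2*, -4.03 for *myh11a*, -1.89 for *tagln*, -1.81 for *tpm4a* and 1.31 for *rgs4* (adjusted p 0.979 to 0.983). *kcnj8* and *abcc9* gave no estimate, since eggs of both treatments had 0 counts. This comparison shares its libraries with those above.

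Between DHP oocytes and P oocytes, both drawn before the injection of DHP or P, none of the 8 genes was called (0% of 16153 genes by edgeR, beside 494 with an unadjusted p below 0.05 and 10 called by DESeq2). *kcnj8* averaged 67.2 ± 37.3 normalized counts in DHP oocytes and 23.6 ± 9.23 in P oocytes (SD, n = 3 each), a log2 difference of 1.50 ± 0.50 (unadjusted p = 0.0138). *abcc9* averaged 37.6 ± 24.1 in DHP oocytes and 15.8 ± 9.45 in P oocytes, a log2 difference of 1.26 ± 0.62 (unadjusted p = 0.0706). *rgs4* averaged 12.6 ± 5.04 in DHP oocytes and 4.99 ± 1.18 in P oocytes, a log2 difference of 1.33 ± 0.46 (unadjusted p = 0.0167). All 3 had an adjusted p of 0.999. *rgs4* was the only one of the 8 whose DHP oocytes all lay above the P oocytes, which held for 3.71% of the genes tested. The 95% intervals by limma-voom were 0.17 to 2.56 for *kcnj8*, -0.14 to 2.77 for *abcc9* and 0.23 to 2.34 for *rgs4*. The 5 contractile genes differed by -0.17 to 0.59 on the log2 scale by edgeR, but by -1.01 to -0.12 by limma-voom, which turned the sign for *tagln*, LOC118211939 and *tpm4a*. The widest interval was that of *myh11a*, from -3.00 to 0.98, so the contractile genes were not shown to be alike in the 2 groups of oocytes.

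Other genes were counted from lists set by gene name and product, and from which cells their transcripts came was not tested. Of 39 further smooth muscle and cytoskeletal genes, 21 were tested after DHP, with 5 lower and 1 higher in eggs. After P 22 were tested, with 10 lower and 1 higher. Their median log2 fold change was -0.46 after DHP and -1.70 after P. The summed level of the 39 genes was 2321 to 3000 normalized counts in DHP eggs against 1753 to 2450 in DHP oocytes. It was 2349 to 2491 in P eggs against 1731 to 1886 in P oocytes. *tpm1* alone averaged 1167 in DHP eggs and 1071 in P eggs. Of the 39 genes, 12 had 0 counts in DHP eggs and 18 in P eggs, against 5 in DHP oocytes and 5 in P oocytes. The sums thus do not describe the list as a whole. Shares over all genes tested were 6.22% lower and 7.35% higher after DHP, and 22.7% and 17.9% after P. *cavin1a*, which builds caveolae, the membrane pits of muscle and endothelium, had 1 count over DHP eggs against 640 over DHP oocytes and 0 over P eggs against 775 over P oocytes. It fell in both treatments (adjusted p = 0.00168 after DHP and 9.0e-05 after P). *smtnl*, a smoothelin-like gene of contractile muscle, had 7 counts over DHP eggs and 0 over P eggs, and it also fell in both (adjusted p = 0.00837 and 8.8e-05). *cav1*, the caveolin of these pits, fell by 6.86 ± 0.73 on the log2 scale after P (adjusted p = 7.0e-05), while its value of -5.07 ± 1.27 after DHP missed the threshold (adjusted p = 0.015).

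*tpm1*, a tropomyosin like *tpm4a*, went the other way. It had 1167 ± 134 normalized counts in DHP eggs and 234.1 ± 141 in DHP oocytes, and 1071 ± 89.6 in P eggs and 163.1 ± 70.2 in P oocytes (SD, n = 3 each). The log2 increase was 2.24 ± 0.41 after DHP (adjusted p = 0.00499) and 2.69 ± 0.35 after P (adjusted p = 0.0002). Tropomyosins are also parts of the cytoskeleton of eggs and other cells, and the list held genes that are not limited to muscle.

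Of 29 further pericyte and mural genes only 7 were tested in either treatment, with 0 called after DHP, and 2 lower and 2 higher after P. Their summed level was 208.4 to 272.4 normalized counts in DHP eggs against 67.3 to 160.2 in DHP oocytes, and 285.4 to 576.9 in P eggs against 61.8 to 111.8 in P oocytes. Most of the sums in eggs came from LOC118213201 and *epas1b*. LOC118213201 averaged 98.8 in DHP eggs and 225.3 in P eggs, and *epas1b* averaged 127.4 and 163.5. Of the 29 genes, 12 had 0 counts in DHP eggs and 16 in P eggs, so the sums do not describe the list as a whole. The counts of lower genes are near those that 6.22% and 22.7% of 7 would give. *pdgfrb*, the receptor through which pericytes are recruited to vessels, had 4 counts over DHP eggs, against 105 over DHP oocytes, and 0 over P eggs, against 103 over P oocytes. It fell after P (adjusted p = 0.00131), and its adjusted p after DHP was 0.0235. LOC118213201, a gene like that of the pericyte proteoglycan NG2, rose by 3.96 ± 0.48 on the log2 scale after P (adjusted p = 0.00013), and *epas1b*, a hypoxia-inducible transcription factor, rose by 1.99 ± 0.34 (adjusted p = 0.00087).

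The 8 further genes of vascular potassium channels gave 2 that could be tested, LOC118219574 and *kcnma1a*, both of the large-conductance calcium-activated channel, and neither was called in either treatment. Their log2 fold changes were -0.52 ± 0.52 and 0.19 ± 0.65 after DHP, and -0.04 ± 0.40 and -0.09 ± 0.75 after P. The RGS list had 34 further genes and, being set by name, also held genes of proteins that bind RGS proteins, such as LOC118214922. Of the 34 genes 12 were tested, with 0 lower and 1 higher after DHP and 3 lower and 2 higher after P. These shares are near the 6.22% lower and 7.35% higher of all genes after DHP and the 22.7% and 17.9% after P. *rgs12a* and LOC118212937, an *rgs3*-like gene, had log2 fold changes of -3.19 ± 0.69 and -3.54 ± 0.78 after P and fell (adjusted p = 0.00317 and 0.00348). LOC118224174, an *rgs14*-like gene, rose in both treatments, by 3.10 ± 0.47 after DHP and 2.78 ± 0.38 after P (adjusted p = 0.0029 and 0.00026). LOC118219537, an *rgs9*-like gene, rose after P.

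Markers of the cell types that lie next to mural cells were counted in the same way. Of 31 endothelial genes, 3 of 12 tested were lower after DHP and 7 of 16 after P, with 0 and 1 higher. Of all genes tested, 6.22% were lower and 7.35% higher after DHP, and 22.7% and 17.9% after P. *esamb*, an adhesion molecule of endothelial junctions, had 1 count over DHP eggs and 0 over P eggs and fell in both treatments (adjusted p = 0.00229 and 8.4e-05). *plvapb*, of the diaphragms of fenestrated vessels, fell by 4.32 ± 0.56 on the log2 scale after DHP and fell by 4.92 ± 0.97 after P (adjusted p = 0.00201 and 0.00189). *lyve1a*, a lymphatic endothelial receptor, fell after P (adjusted p = 0.00144). *sox17* was the endothelial gene that rose after P, by 1.14 ± 0.30 (adjusted p = 0.00903).

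Of 33 fibroblast and stroma genes, 7 of 18 tested were lower after DHP and 12 of 20 after P, with 1 higher in each. For this list and that of follicle cells, the shares of all genes were 6.22% lower after DHP and 22.7% after P. LOC118214884, a gene like that of the alpha-2 chain of type I collagen, had 314 counts over DHP eggs against 36290 over DHP oocytes, with a log2 fold change of -6.39 ± 1.55 that missed the threshold (adjusted p = 0.0134). After P it fell by 12.55 ± 0.92, with 11 counts over P eggs against 97884 over P oocytes (adjusted p = 1.6e-05). LOC118231824, another gene with that product name, was the one that rose, by 1.76 ± 0.36 after DHP and 2.09 ± 0.40 after P (adjusted p = 0.00679 and 0.00161). *sparc*, a matrix glycoprotein, fell by 5.79 ± 0.96 on the log2 scale after DHP and fell by 8.22 ± 0.80 after P (adjusted p = 0.00372 and 4.3e-05). *col1a2*, a chain of type I collagen, had 17 counts over DHP eggs and 0 over P eggs and also fell in both (adjusted p = 0.00447 and 6.3e-05). Of 15 follicle cell genes, 8 of 9 tested were lower after DHP and 10 of 11 after P. LOC118218511, a steroid 17-alpha-hydroxylase/17,20 lyase of the steroid pathway, had 1 count over DHP eggs against 5852 over DHP oocytes and 2 over P eggs against 14902 over P oocytes, and it fell in both (adjusted p = 0.00153 and 5.8e-06). LOC118231945, with the same product name, had 82 counts over DHP eggs against 4018 over DHP oocytes and missed the threshold (adjusted p = 0.0244), and with 0 over P eggs it was at least 1683-fold lower than in P oocytes (adjusted p = 1.1e-05). *foxl2a*, a transcription factor of granulosa cells, had 11 counts over DHP eggs and 0 over P eggs and fell in both (adjusted p = 0.00368 and 1.5e-05).

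Of 16 blood cell genes, 0 were lower and 1 higher of 9 tested after DHP, and 1 lower and 1 higher of 8 after P. With so few genes, these counts are near the shares of all genes. Those were 6.22% lower and 7.35% higher after DHP, and 22.7% and 17.9% after P. The hemoglobin gene LOC118216920 fell by 4.47 ± 1.19 on the log2 scale after P (adjusted p = 0.0096), and *epb41b*, of the membrane skeleton, rose in both treatments. *spi1b*, a transcription factor of myeloid cells, had log2 fold changes of -1.27 ± 0.75 and -1.94 ± 0.79 and was not called (adjusted p = 0.216 after DHP and 0.0581 after P). Of 90 genes on the striated muscle list only 6 were tested after DHP and 8 after P, with 2 and 4 lower, and 0 and 1 higher. This list also held *myl12.1* and *myl12.2*, with 34416 and 48906 counts over all libraries. Both are on the smooth muscle and cytoskeletal list too, so the counts of this list do not describe striated muscle alone. LOC118207331, a myosin-7-like gene of slow muscle, had 0 counts in eggs of both treatments and was at least 119.6-fold lower after DHP and at least 535.9-fold lower after P (adjusted p = 0.00201 and 0.00036). Another myosin-7-like gene, LOC118224814, had 3 counts over DHP eggs and 0 over P eggs and fell in both. LOC118211202, a troponin C of slow and cardiac muscle, had 27 counts over DHP eggs and missed the threshold (adjusted p = 0.039), and with 3 counts over P eggs against 1905 over P oocytes it fell after P (adjusted p = 4.0e-05). *ryr1b*, a calcium release channel of skeletal muscle, rose after P by 2.89 ± 0.67 on the log2 scale (adjusted p = 0.00467), while its value of 2.50 ± 0.94 after DHP had an adjusted p of 0.0649. The part of striated muscle RNA in the counts of the contractile genes was not tested.

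**Figure D5:**
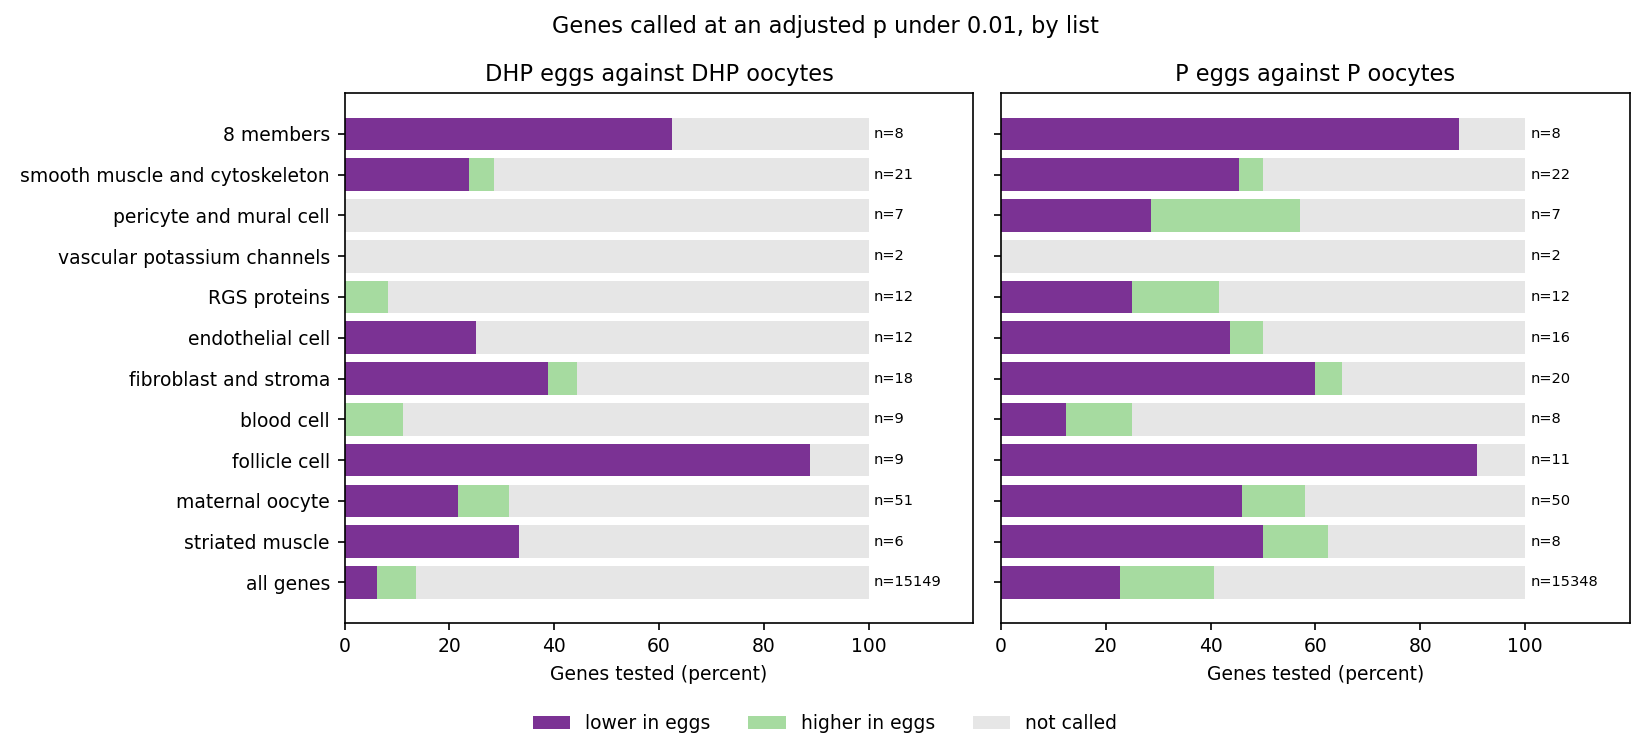
Share of the genes tested (percent) that were lower in eggs, higher in eggs or not called at an adjusted p under 0.01, for the 8 genes, 10 lists without them and all genes, with n the number tested. Follicle cell genes have the largest share of lower calls in both treatments, at 8 of 9 after DHP and 10 of 11 after P. Some genes stand in several lists, such as *myl12.1* and *myl12.2* in those of smooth and striated muscle.

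The levels of the 8 genes were also set against all others over the 6 oocyte libraries. Their mean log2 CPM (pseudocount 0.5) was most like that of *ptp4a1*, with a Pearson r of 0.991 over 6 libraries, among 11989 genes with a mean of at least 50 counts. The next were LOC118230778 (0.982), LOC118211893 (0.982), *sgsm3* (0.979), *sdk1b* (0.977), *spice1* (0.977), LOC118234515 (0.977) and *tspan5a* (0.976). These 8 genes were picked for the largest r among the 11989, whose median r was -0.0099. With only 6 libraries, their r values are a description and no test. All 8 had their highest level in library 3, as did 7 of the members, and this single library weighs heavily in each r. *ptp4a1*, a tyrosine phosphatase, had 196.0, 18.2 and 18.3 normalized counts in DHP oocytes and 20.7, 48.9 and 53.0 in P oocytes, but 5233 counts over DHP eggs and 6308 over P eggs, where no member had more than 129. *tspan5a*, a tetraspanin, had 3 and 1 counts over these eggs. Each member's own r with the mean it is part of was 0.857 to 0.889 for the 5 contractile genes, 0.708 for *abcc9*, 0.511 for *kcnj8* and 0.489 for *rgs4*.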

How the data were processed

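The deposited counts give, for each gene, the fragments assigned to it. The authors aligned paired-end reads from stranded mRNA libraries to fAngAng1.pri with TopHat2 2.0.13, removed secondary alignments with SAMtools 1.2 and counted with HTSeq 0.6.1p1. Whether counting used the strand is not stated in the methods read here. The deposited tables also hold fold changes and p-values of the authors' own comparisons with DESeq, which were not used. The number of unused per-sample columns was 0. All 29999 gene IDs matched the RefSeq gene table of the same assembly, which gave the coordinates. Genes were taken by their names.

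Counts were compared with edgeR 4.0.16 (R 4.3.3, quasi-likelihood, TMM, 6 libraries per fit, 12 for the difference between treatments), with filterByExpr at 10 counts and a total of 15, and with p-values adjusted by Benjamini-Hochberg over all genes tested. Intervals came from limma 3.58.1, and DESeq2 1.42.0 was an alternative. Tables were made with Python 3.11.15, pandas 2.3.3, scipy 1.17.1 and matplotlib 3.10.9. The fit was tested on simulated data. Totals of 6612347 to 9903122 fragments put 3 counts over a group of eggs at 0.151 (DHP) and 0.145 (P) normalized counts.

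Libraries were paired by their order in the tables (1 and 2, 3 and 4, up to 11 and 12), since the same females gave oocytes and eggs. Deviations from the group means correlated at 0.273 to 0.420 within pairs and -0.301 to -0.0499 otherwise. The main fits of eggs against oocytes had no term for the female. They thus treat the 6 libraries as independent, although each female gave both an oocyte and an egg library. Between the eggs or the oocytes of the treatments, females are separate animals, and p-values there measure the spread between 3 females per group.

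Genes named are the 8 members, gene copies, from each list the 3 genes of smallest p and at most 2 that rose, and the 8 most alike in oocytes. The members and lists were chosen with earlier results of these data known. Alternatives were other scalings, filters and thresholds, 1 fit of all libraries, pairing, and each library left out. Pairing in the fit of all 12 libraries was added after the data had been seen.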

Additional observations from a re-analysis of the deposited data

How the results depend on the processing

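After DHP, 5 of the 8 genes were called. All 8 were called with scaling by total counts, with DESeq2, without a filter, with a minimum count of 30, in 1 fit of all libraries and at an adjusted p under 0.05, and 5 with RLE scaling. Leaving out 1 library gave 2 to 5. With the libraries paired (replicate block) 4 were called after DHP and 8 after P, and apart from *myh11a* after DHP and *rgs4* after P the pairing changed no call. After P, 7 or 8 genes were called in all 14 alternatives. No member was called between eggs, between oocytes or for the difference between treatments in any alternative run, and with a minimum count of 30 no member was left to test between eggs. In every alternative all 8 genes kept a negative fold change in eggs after both treatments. Scaling by total counts moved the median of all genes to -0.80 after DHP and -1.01 after P, against -0.20 and -0.26 with TMM. Of all genes, 2057 were called after DHP, 4466 with DESeq2, 2595 with scaling by total counts, 3588 in 1 fit of all libraries, 2959 without a filter and 122 to 1708 with 1 library left out, and after P 6227, or 4583 to 7566 over the other fits. At an adjusted p under 0.05 it was 5145 after DHP and 8605 after P.

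Between DHP oocytes and P oocytes the sign was not stable for the contractile genes. *myh11a*, at -0.00096, was 0.0061 with RLE scaling, 0.0036 with DESeq2, 0.0017 with a minimum count of 30 and 0.00056 in 1 fit of all libraries. Leaving out 1 library gave -2.44 to 0.52 for *myh11a*, -1.45 to 0.44 for *acta2*, -1.11 to 0.77 for *tagln*, -1.42 to 0.92 for LOC118211939 and -1.37 to 1.09 for *tpm4a*. For the difference between treatments it gave -4.13 to 1.34 for *acta2*, -2.67 to 0.27 for *tpm4a* and -2.93 to 2.46 for *rgs4*.

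Without *acta2* and *tagln*, the members with the largest means, the sum of the members in P oocytes was 245.4 CPM.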
